A study of Mus musculus with 12 samples.

Results

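Leukotrienes are lipid mediators that leucocytes make from arachidonic acid. Arachidonate 5-lipoxygenase (Alox5), helped by its activating protein in the nuclear membrane (Alox5ap, also called FLAP), converts arachidonic acid to leukotriene A4. Leukotriene A4 hydrolase (Lta4h) turns it into leukotriene B4, a strong attractant of neutrophils, while leukotriene C4 synthase (Ltc4s) joins it to glutathione to form the first of the cysteinyl leukotrienes. In bone marrow these genes are known mainly from the myeloid lineage, and the related 12- and 15-lipoxygenases (Alox12, Alox15) from platelets, eosinophils and macrophages. The 9 genes described here were taken by name from the 34745 genes of the deposited table, and each name matched 1 gene. They are Alox5, Alox5ap, Lta4h, Ltc4s, the leukotriene C4 cleaving enzyme Ggt5, the leukotriene B4 degrading enzyme Cyp4f18, the leukotriene B4 receptor Ltb4r1, Alox15 and Alox12.

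Total RNA of all bone marrow cells in the femur was sequenced from 12 male mice of the outbred stock ICR, 3 mice and 3 libraries per group. Mice of the normal group were given saline by mouth for 1 week, and normal saline in an equivalent volume in place of the cyclophosphamide injections. The 3 other groups were all injected intraperitoneally with cyclophosphamide, a DNA-alkylating drug toxic to dividing cells, at 80 mg/kg/day on days 5 to 7, together with an oral treatment for 1 week. That treatment was saline in the model group, the traditional formula QJSB granule at 3 g/kg/day in the QJSB group, and leucogen, a drug used against low leucocyte counts, at 20 mg/kg/day in the leucogen group. No group received QJSB or leucogen without cyclophosphamide, so neither drug can be separated here from its combination with the injury. Values are CPM, read counts scaled to the library size with TMM factors, for comparisons of 1 gene between libraries, or FPKM, which also divides by gene length, for comparisons between genes. A gene was called at an absolute fold change over 1.5 with a Benjamini-Hochberg adjusted p under 0.05 in edgeR's quasi-likelihood test, with adjustment over all genes tested. These are p-values over separate mice, 3 against 3.

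Library totals ran from 11172547 to 18545198 counts, and each pair of libraries of a group differed by more than sampling noise. The marrow label was checked with lists of marker genes. Every library held each of the 14 late neutrophil and 6 promyelocyte markers, whereas all 8 B lineage and all 10 erythroid markers fell in model against normal. Every marker of these 2 lists was also lower than normal in the QJSB and leucogen groups. In such bulk samples a lower share of a cell type and less RNA per cell cannot be told apart. The library QJSB 1 stood apart from QJSB 2 and QJSB 3, and results that it decides are given with and without it.

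The promoters of 4 genes are shown because their genes formed a pair that was lower and a pair that was higher after cyclophosphamide. Each covers 250 bases before to 50 bases after the start of the gene in RefSeq (GRCm38.p6), is written in the direction of transcription, and has in capitals the GC box (GGGCGG or CCGCCC) and the PU.1 core (GAGGAA or TTCCTC, the motif of a transcription factor needed for myeloid cells). Alox5 lies at chr6:116461129-116461428 on the minus strand and Cyp4f18 at chr8:72009577-72009876 on the minus strand. Lta4h lies at chr10:93453146-93453445 and Ltb4r1 at chr14:55765712-55766011, both on the plus strand.
Alox5: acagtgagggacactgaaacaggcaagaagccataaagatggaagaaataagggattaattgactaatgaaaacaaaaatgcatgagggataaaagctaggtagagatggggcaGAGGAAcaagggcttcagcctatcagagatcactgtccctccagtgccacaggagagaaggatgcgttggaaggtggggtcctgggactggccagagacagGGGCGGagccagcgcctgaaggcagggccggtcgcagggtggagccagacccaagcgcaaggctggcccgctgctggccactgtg
Cyp4f18: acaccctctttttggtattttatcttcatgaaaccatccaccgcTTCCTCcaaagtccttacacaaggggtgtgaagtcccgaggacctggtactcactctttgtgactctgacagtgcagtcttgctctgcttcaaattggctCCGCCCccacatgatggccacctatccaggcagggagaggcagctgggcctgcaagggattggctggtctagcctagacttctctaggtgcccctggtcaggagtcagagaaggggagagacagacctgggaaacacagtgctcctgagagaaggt
Lta4h: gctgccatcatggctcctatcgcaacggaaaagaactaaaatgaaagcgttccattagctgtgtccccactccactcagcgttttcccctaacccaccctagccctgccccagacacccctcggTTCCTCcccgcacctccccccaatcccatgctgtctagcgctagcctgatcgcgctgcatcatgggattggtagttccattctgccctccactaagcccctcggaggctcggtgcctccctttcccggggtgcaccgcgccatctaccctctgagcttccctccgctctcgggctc
Ltb4r1: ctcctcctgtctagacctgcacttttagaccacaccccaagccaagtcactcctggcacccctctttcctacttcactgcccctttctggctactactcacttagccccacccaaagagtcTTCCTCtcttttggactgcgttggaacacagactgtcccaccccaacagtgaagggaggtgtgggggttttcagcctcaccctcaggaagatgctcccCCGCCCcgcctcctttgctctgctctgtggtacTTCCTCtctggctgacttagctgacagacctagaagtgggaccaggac
On either strand, all 4 promoters held a PU.1 core, as did 28.3% of the 32851 mouse promoters of the same length, and Ltb4r1 held 2. A GC box was found in Alox5, Cyp4f18 and Ltb4r1 but not in Lta4h, against 35.7% of all promoters. The C/EBP motif (TTNNGNAA) and the GATA motif (AGATAA) were each found once in Cyp4f18 and in none of the other 3, against 40.7% and 11.2% of all promoters. These matches describe letters in a window and were shared by genes that moved in opposite directions. RefSeq promoters were matched for 6 of the 9 genes, and those of Alox5ap, Ggt5 and Alox15 were not used here.

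The order of the genes by level is best read in normal marrow on the FPKM scale. Lta4h was at 74.7 ± 6.44 FPKM (SD, n = 3), Alox5ap at 42.6 ± 0.50 and Alox15 at 30.3 ± 3.02. Ltb4r1 at 19.9 ± 3.93 and Cyp4f18 at 19.7 ± 1.60 overlapped, followed by Alox5 at 11.3 ± 0.73, Alox12 at 6.70 ± 3.37, Ggt5 at 2.50 ± 0.42 and Ltc4s at 0.115 ± 0.0574. The other neighbours in this order did not overlap between libraries. In the 3 groups given cyclophosphamide the first 3 places went to Lta4h, Alox5ap and Ltb4r1 and the last 2 to Ltc4s and Alox15, whose libraries overlapped in model and QJSB. Alox12, Alox5 and Cyp4f18 overlapped in model, at 7.47 ± 4.89, 5.50 ± 2.16 and 3.85 ± 1.18 FPKM. This order depends on the lengths used, most for Lta4h. The deposited FPKM imply 2066 bases for Lta4h and 2228 for Alox5ap. The union of their exons in GENCODE M21 is 6102 and 1420 bases, and with these lengths Alox5ap stood above Lta4h in all 4 groups. In normal, Lta4h at 25.3 ± 2.18 then also lay below Alox15 at 31.8 ± 3.17. Alox5, with 7407 implied bases and an exon union of 4106, moved up to 20.5 ± 1.33, beside Ltb4r1 at 19.9 ± 3.93.

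**Figure D1:**
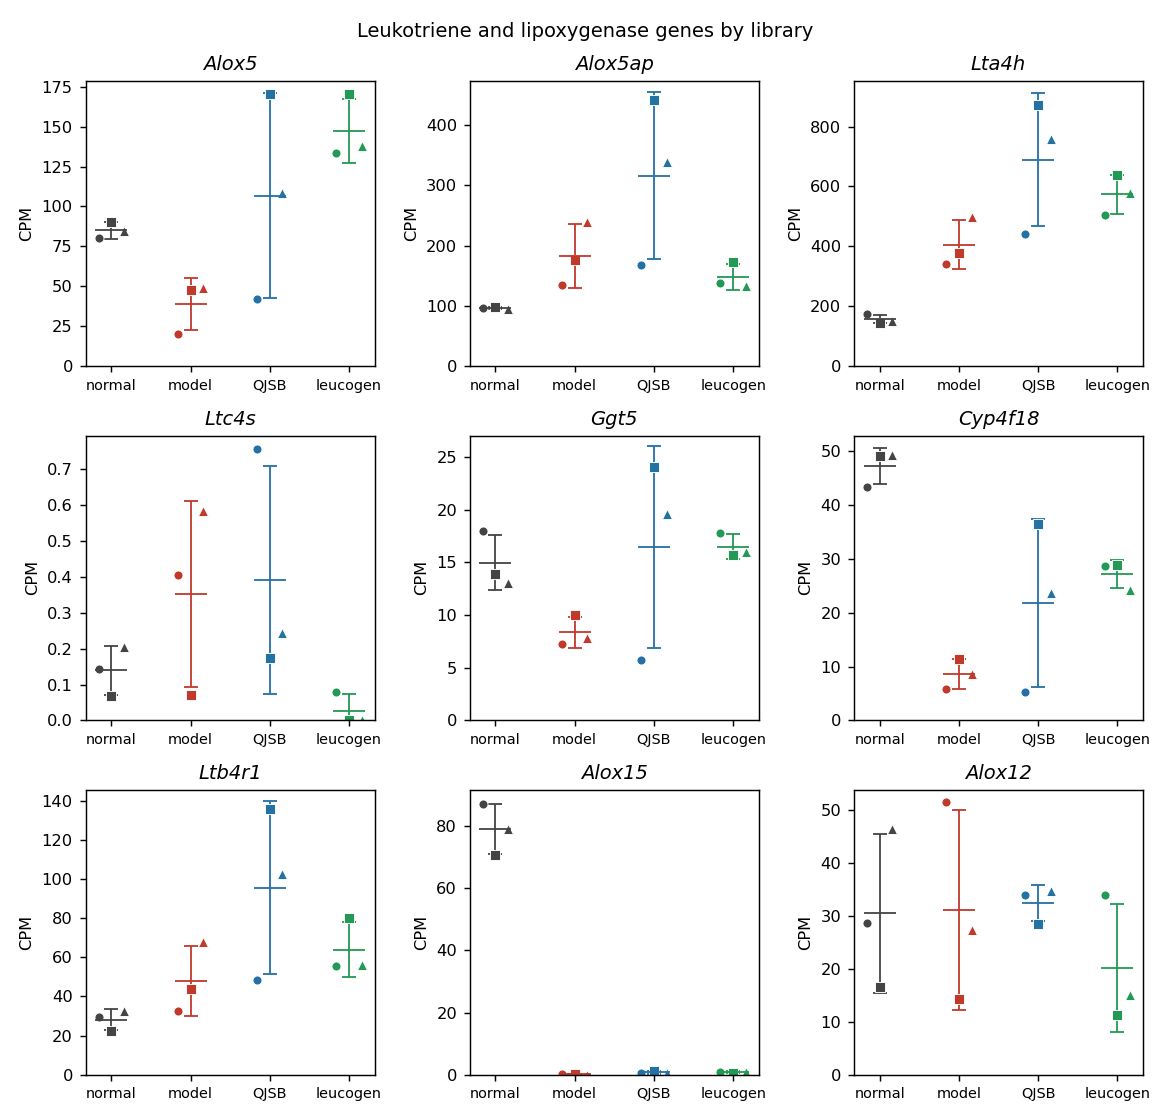
Level of each of the 9 genes in CPM (vertical axis, from 0, a scale for each gene) in the 12 libraries by group. Symbols are libraries (circle, square and triangle for replicates 1, 2 and 3), horizontal lines are group means and bars are 1 SD. Alox15 was at 70.7 to 87.1 CPM in normal and at most 1.17 CPM in any other library, while QJSB 1 lay well below the other QJSB libraries for Alox5, Alox5ap, Lta4h, Ggt5, Cyp4f18 and Ltb4r1.

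Cyclophosphamide was followed by a split within the pathway. In model against normal, Alox5ap, Lta4h and Ltb4r1 were higher and Alox5, Ggt5, Cyp4f18 and Alox15 were lower. Alox5 and its own activating protein thus moved in opposite directions. Of the 8 genes that passed the filter on low counts, 3 rose and 4 fell, and Alox12 did not pass the test. Over all 14752 genes tested, 35.1% were called, 16.1% higher and 19% lower, so calls were common in this comparison. The groups did not overlap for those 7 genes, nor for 55.4% of all genes. The median log2 fold change of the 8 genes was -0.41, beside 0.02 over all genes.

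Alox5, which carries out the first committed step, lies at chr6:116410077-116461178 (GRCm38, as are the gene positions that follow). It was at 79.96, 90.3 and 84.8 CPM in the normal libraries and at 19.9, 47.4 and 48.9 CPM in model. All model libraries were below all normal ones, with model 1 the lowest of the 12. The log2 fold change was -1.15 (SE 0.31, 95% interval -1.87 to -0.41, edgeR adjusted p = 0.0221). The call was narrow, since the edgeR adjusted p was 0.0530, 0.0672 and 0.0560 without normal 1, normal 2 and normal 3. Its helper Alox5ap (chr5:149264767-149288153) moved the other way, from 96.8, 97.5 and 93.8 CPM in normal to 134, 176 and 239.9 CPM in model, with a log2 fold change of 0.92 (SE 0.20, edgeR adjusted p = 0.00622) and no overlap. The antisense gene Gm19719 overlaps Alox5ap. The libraries were strand-specific, but whether the counting used the strand is not given in the sources used here.

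Lta4h (chr10:93453396-93484896) was the member with the largest rise. It was at 173, 145 and 152 CPM in normal and at 341, 377 and 498 CPM in model, with a log2 fold change of 1.36 (SE 0.16, edgeR adjusted p = 3.4e-04). Ltb4r1, which encodes the high-affinity receptor through which neutrophils sense leukotriene B4 (chr14:55765962-55768494), was at 29.3, 22.2 and 32.7 CPM in normal and at 32.8, 43.7 and 67.8 CPM in model. The libraries nearest to each other, normal 3 and model 1, were almost level. Its log2 fold change of 0.76 (SE 0.27) had an edgeR adjusted p of 0.0497, which became 0.0670 to 0.157 without any 1 normal library, model 2 or model 3.

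Both members that act on finished leukotrienes were lower. Cyp4f18, a cytochrome P450 that hydroxylates the end of leukotriene B4 (chr8:71988482-72009626), was at 43.3, 49.1 and 49.4 CPM in normal and at 5.83, 11.4 and 8.64 CPM in model. It fell by 2.47 on the log2 scale (SE 0.24, edgeR adjusted p = 1.2e-04), the strongest fall after Alox15, and kept its call in all 14 alternatives and left-out libraries. Its end overlaps Zfp961 on the opposite strand. Ggt5, a gamma-glutamyltransferase that turns leukotriene C4 into leukotriene D4 (chr10:75589340-75617200), was at 18.0, 13.9 and 13.02 CPM in normal and at 7.28, 10.0 and 7.82 CPM in model. The groups did not overlap, the log2 fold change was -0.85 (SE 0.21, edgeR adjusted p = 0.0129), and without normal 1 it was -0.70 (edgeR adjusted p = 0.0630).

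Alox15, the 12/15-lipoxygenase (chr11:70344152-70352031), was almost lost. It had 1206, 1037 and 1158 counts in the normal libraries and 3, 2 and 0 in model. The summed counts, corrected for library size, were 766 times higher in normal than in model (exact interval 328 to 2359, counting error only), and edgeR gave an adjusted p of 5.9e-06. The count of 0 in model 3 allows up to 0.175 CPM. Eosinophils are a known source of this enzyme, and the summed level of 9 eosinophil markers went from 1584 to 1960 CPM in normal to 77.4 to 195 CPM in model, with 8 of the 9 lower at the same cutoff and none at 0 in any library. The summed level of 10 macrophage markers went from 511 to 585 CPM in normal to 232 to 388 CPM in model (6 lower), and that of 7 basophil and mast cell markers from 207 to 263 CPM to 63.1 to 104 CPM (5 lower). B lineage and erythroid markers fell as well, and the part of any of these cells in the loss of Alox15 was not tested.

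Alox12, the platelet-type enzyme (chr11:70241457-70255353), was at 28.5, 16.5 and 46.3 CPM in normal and at 51.5, 14.3 and 27.3 CPM in model. The groups overlapped fully, with a log2 fold change of 0.02 (95% interval -1.25 to 1.29, edgeR adjusted p = 0.982). Its highest libraries, normal 3 and model 1, were also the highest of their groups for the summed level of 8 megakaryocyte and platelet markers, at 403 and 466 CPM beside 181 to 242 CPM in the other 4 libraries. None of these markers was at 0, and their part in the spread of Alox12 was not tested. Ltc4s (chr11:50236469-50238616) had only 2, 1 and 3 counts in normal and 7, 1 and 10 in model and failed the filter in all 6 comparisons, so it was not tested across mice. The ratio of summed counts of model to normal, corrected for library size, was 2.67 (exact interval 1.01 to 8.20, counting error only), and the libraries of the groups overlapped. It also overlaps the antisense gene Gm26542.

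**Figure D2:**
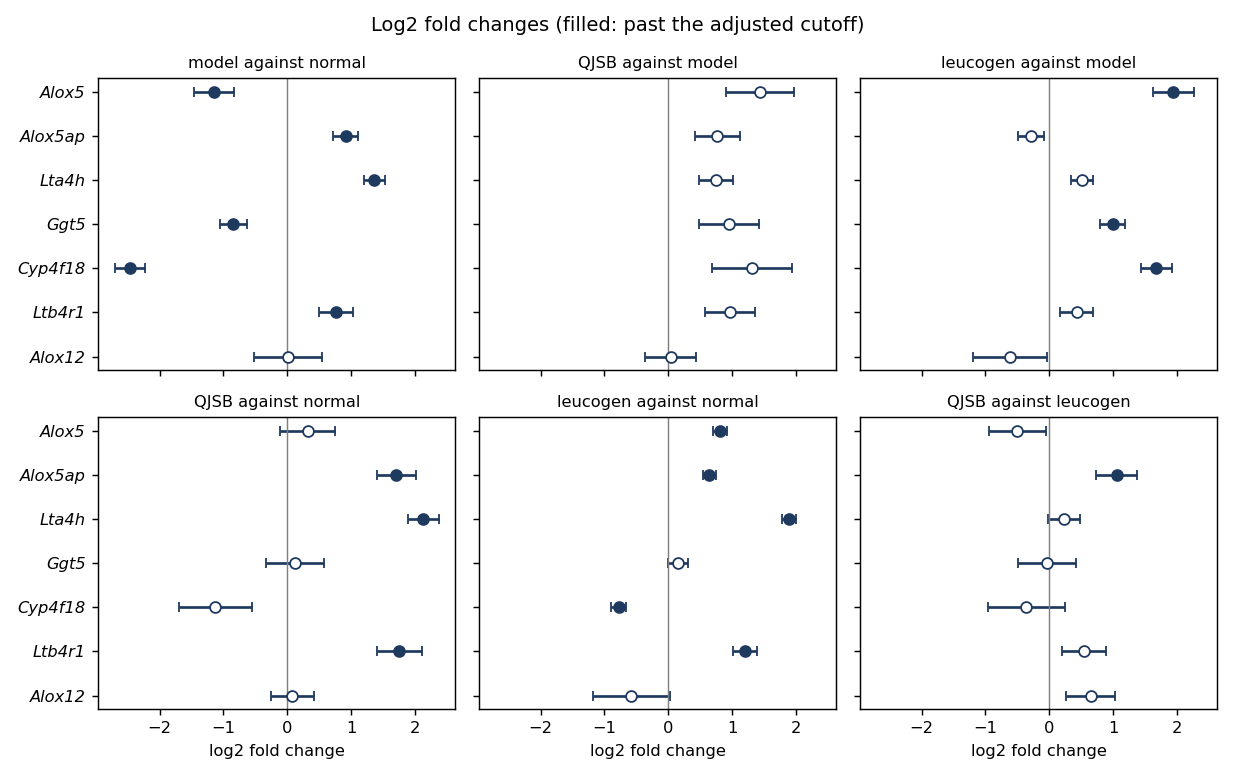
Log2 fold change of 7 genes (horizontal axis) in each of the 6 comparisons, with bars of 1 SE. Filled points passed the adjusted cutoff. Alox15, far off this scale, and Ltc4s, not tested, are left out. In model against normal the points lie on both sides of 0, from -2.47 for Cyp4f18 to 1.36 for Lta4h, and no point is filled in QJSB against model.

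The ratios of these genes within a library show the split without reference to library size. Alox5ap stood at 3.59 to 4.02 times the FPKM of Alox5 in the normal libraries and at 12.3 to 22.4 times in model. The ratio was 8.63 to 13.2 in QJSB and 3.22 to 3.45 in leucogen, so that only the leucogen libraries lay near normal, slightly below them. The ratio of Lta4h to Alox5 was 6.63 ± 1.02 in normal, 42.2 ± 17.3 in model, 27.0 ± 9.77 in QJSB and 14.0 ± 0.93 in leucogen (SD, n = 3). Here all leucogen libraries stayed above all normal ones. The ratio of Alox5 to Cyp4f18 was 0.551 to 0.592 in normal and above 1 in all 9 other libraries, at 1.41 ± 0.37 in model, 1.84 ± 0.61 in QJSB and 1.74 ± 0.21 in leucogen. These ratios use the deposited lengths, which scale every library alike, and no test was run on them.

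**Figure D3:**
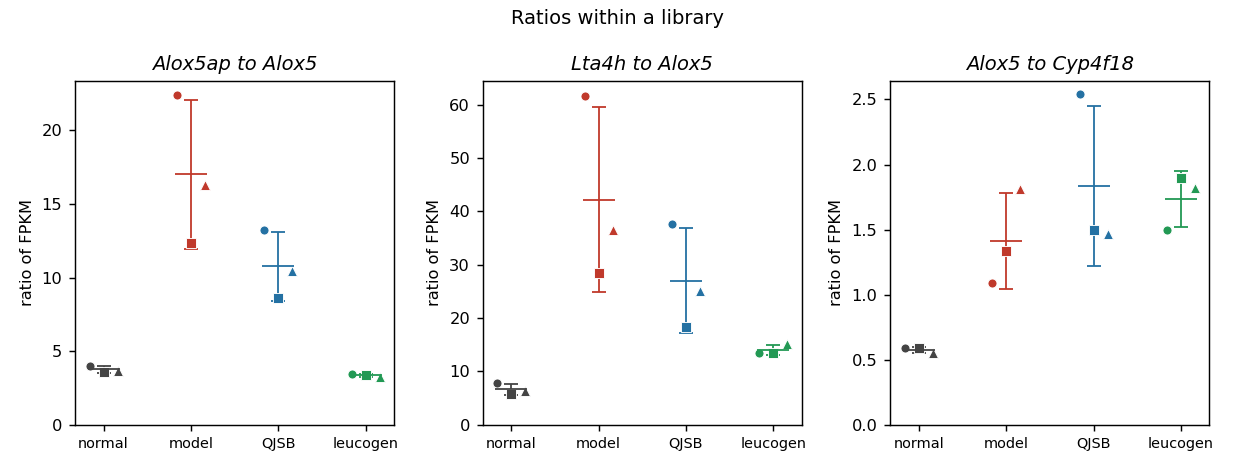
Ratio of the FPKM of 2 genes within each library (vertical axis, from 0) by group, for Alox5ap to Alox5, Lta4h to Alox5 and Alox5 to Cyp4f18. Symbols are libraries (circle, square and triangle for replicates 1, 2 and 3), lines are means and bars are 1 SD. Model and QJSB libraries lie above the normal ones in all 3 panels. Leucogen libraries lie near the normal ones, slightly below them, only for Alox5ap to Alox5.

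In QJSB against model, the mean CPM of all 7 genes tested was higher in QJSB, that of Alox12 by less than its spread, but none was called. No gene of the 14486 tested was called by edgeR (0%), and 723 (4.99%) had an unadjusted p under 0.05. DESeq2 without a filter called 8 genes over the whole table, and 0 of the 9 genes described here. With edgeR's unadjusted p under 0.05 in place of the adjusted one and the same fold cutoff, 3 of the 7 genes passed, all as higher, against 3.08% of all genes tested in either direction and 1.68% as higher. These were Alox5, Lta4h and Ltb4r1. The median log2 fold change of the 7 genes was 0.95, beside -0.02 over all genes.

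Alox5 was at 42.0, 170.4 and 108 CPM in the QJSB libraries. QJSB 2 and QJSB 3 lay above every model library, and QJSB 1 lay within the model range. The log2 fold change was 1.44 (SE 0.53, 95% interval 0.19 to 2.70), with an unadjusted edgeR p of 0.0293 and an adjusted p of 0.767. Deviations from the group means correlated at 0.451, 0.135 and 0.102 for QJSB and model libraries numbered 1, 2 and 3, but QJSB 2 with model 3 (0.168) and QJSB 3 with model 2 (0.182) correlated more than their own numbers. With the number as a block Alox5 became the 1 member called, at a log2 fold change of 1.34 (edgeR adjusted p = 0.0378). With this block, 18 of the 14486 genes tested were called. Without QJSB 1 and without the block the log2 fold change was 1.83 and Alox5 was not called.

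Lta4h was at 440.1, 872 and 758 CPM in QJSB, with a log2 fold change over model of 0.75 (95% interval 0.14 to 1.36, edgeR adjusted p = 0.767). Ltb4r1 was at 48.4, 136 and 102 CPM, with 0.97 (95% interval 0.06 to 1.88, edgeR adjusted p = 0.767). Both overlapped model through QJSB 1 alone. Alox5ap followed the same order, at 167, 442 and 339 CPM, with a log2 fold change of 0.77 (95% interval -0.04 to 1.58, edgeR adjusted p = 0.767).

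Cyp4f18 was at 5.29, 36.4 and 23.7 CPM in QJSB and Ggt5 at 5.72, 24.1 and 19.6 CPM. In QJSB 1 both were lower than in any model library, whereas in QJSB 2 and QJSB 3 both were above every model library. Their log2 fold changes were 1.32 (95% interval -0.15 to 2.79) and 0.95 (95% interval -0.12 to 2.02), each with an edgeR adjusted p of 0.767. Alox12 was at 34.0, 28.4 and 34.6 CPM, the narrowest spread of any group, with a log2 fold change of 0.04 (95% interval -0.88 to 0.96, edgeR adjusted p = 0.985).

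Alox15 failed the filter in this comparison. It had 12, 20 and 7 counts in QJSB, each above the 3, 2 and 0 counts in model, and the summed counts gave a ratio of 7.28 corrected for library size (exact interval 2.87 to 23.7, counting error only). Even so, its level in QJSB was 0.428 to 1.17 CPM, and it fell by 6.71 on the log2 scale against normal (edgeR adjusted p = 9.4e-06). The eosinophil markers summed to 79.6 to 294 CPM in QJSB, overlapping model. Ltc4s had 14, 3 and 4 counts.

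In leucogen against model, 3 of the 7 genes tested rose and none fell. Over all 14184 genes, 23.1% were called, 11.6% higher and 11.5% lower. Alox5 was at 134, 170.4 and 138 CPM, Cyp4f18 at 28.7, 28.8 and 24.2 CPM and Ggt5 at 17.8, 15.7 and 15.96 CPM. For these 3 genes, which had all fallen in model, every leucogen library was above every model library, as was the case for 21.8% of all genes. The log2 fold change was 1.95 for Alox5 (SE 0.32, edgeR adjusted p = 0.00692), 1.68 for Cyp4f18 (SE 0.24, edgeR adjusted p = 0.00336) and 0.99 for Ggt5 (SE 0.20, edgeR adjusted p = 0.00916). The model libraries are shared by both drug comparisons and by model against normal, so these changes are not independent of the falls above.

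The 3 genes that had risen in model did not pass. Alox5ap was at 139, 173 and 133 CPM in leucogen, within the model range but for leucogen 3, with a log2 fold change of -0.28 (95% interval -0.75 to 0.18, edgeR adjusted p = 0.329). Lta4h was at 504, 637 and 579 CPM, above every model library, with 0.52 (edgeR adjusted p = 0.0518), and Ltb4r1 at 55.8, 80.1 and 55.9 CPM with 0.43 (edgeR adjusted p = 0.247). Without model 3 both were called, at 0.71 (edgeR adjusted p = 0.0201) and 0.78 (edgeR adjusted p = 0.0359). Alox12 was at 33.9, 11.3 and 15.1 CPM (log2 fold change -0.61, edgeR adjusted p = 0.473), and its high library, leucogen 1, also had the most summed platelet markers, at 322 CPM beside 162 and 121 CPM.

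Alox15 had 13, 6 and 11 counts in leucogen, again above model in every library, with a ratio of summed counts of 7.89 (exact interval 3.03 to 26.0, counting error only). It also failed the filter here. Ltc4s had 1, 0 and 0 counts, below model in sum (ratio 0.0731, exact interval 0.00175 to 0.463, counting error only) with model 2 at 1 count as well, and a count of 0 allows up to 0.218 CPM in leucogen 2 and 0.285 CPM in leucogen 3. Set beside 21 counts over the 3 QJSB libraries, the ratio of QJSB to leucogen was 14.9 (exact interval 2.40 to 617, counting error only), but 14 of the 21 counts came from QJSB 1.

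Against normal marrow, Lta4h, Alox5ap and Ltb4r1 were higher and Alox15 was lower in both drug groups. In QJSB against normal, 4 of the 8 genes tested were called, beside 37.9% of all genes (18% higher, 19.9% lower). Alox5ap (log2 fold change 1.71, edgeR adjusted p = 0.00358), Lta4h (2.14, edgeR adjusted p = 4.4e-04) and Ltb4r1 (1.76, edgeR adjusted p = 0.00556) were higher and Alox15 was lower. Alox5 (0.32, 95% interval -0.68 to 1.32) and Cyp4f18 (-1.13, 95% interval -2.47 to 0.22) did not pass, though without QJSB 1 both did, at 0.70 (edgeR adjusted p = 0.0141) and -0.66 (edgeR adjusted p = 0.0158).

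In leucogen against normal, 6 of 8 genes were called, beside 37.7% of all genes (17.8% higher, 19.8% lower). Alox5 (0.81, edgeR adjusted p = 1.3e-04), Alox5ap (0.64, edgeR adjusted p = 5.2e-04), Lta4h (1.89, edgeR adjusted p = 5.0e-07) and Ltb4r1 (1.20, edgeR adjusted p = 5.7e-04) were higher. Cyp4f18 stayed lower (-0.78, edgeR adjusted p = 2.5e-04), as did Alox15 (-6.56, edgeR adjusted p = 3.3e-08). Ggt5 was near normal (0.16, 95% interval -0.19 to 0.51, edgeR adjusted p = 0.423). Without leucogen 2, Alox5ap was at 0.51 and under the fold cutoff. Alox5 was the 1 gene of the set that was below normal in model and above it in leucogen, while Cyp4f18 remained below normal in both.

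The direct comparison of the drugs called 1 of 8 genes, beside 24.6% of all genes (12.9% higher, 11.7% lower in QJSB). Alox5ap was higher in QJSB than in leucogen, with a log2 fold change of 1.06 (SE 0.32, edgeR adjusted p = 0.0449), although QJSB 1 at 167 CPM lay below leucogen 2 at 173 CPM. The call rests on all of the libraries but QJSB 1, since the edgeR adjusted p was 0.0758 to 0.134 without any 1 of the other 5. Alox5 (-0.50, 95% interval -1.57 to 0.57), Lta4h (0.23, 95% interval -0.33 to 0.80), Ggt5 (-0.04, 95% interval -1.10 to 1.03) and Cyp4f18 (-0.36, 95% interval -1.80 to 1.09) did not pass, and these intervals leave room for changes over the cutoff in at least 1 direction. Ltb4r1 (0.55, edgeR adjusted p = 0.279) was called without QJSB 1, at 0.86 (edgeR adjusted p = 0.00728), and Alox12 (0.65, edgeR adjusted p = 0.233) without leucogen 1, at 1.25 (edgeR adjusted p = 0.0224).

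Late neutrophil markers moved beside several of these genes. The mean log2 CPM of the 14 markers was 9.46 to 9.57 in normal, 6.52, 8.66 and 8.00 in model, 7.19, 10.0 and 9.51 in QJSB, and 10.2 to 10.4 in leucogen. In model against normal 6 of the 14 fell and none rose, in QJSB against model none was called, and in leucogen against model 10 rose. Model 1 and QJSB 1 were the lowest libraries for this list and were also the lowest of their groups for Alox5, Alox5ap, Lta4h, Ggt5, Cyp4f18 and Ltb4r1. The level of Alox5 followed the list over the 12 libraries, and the genes with the most similar log2 CPM were Ltf (Pearson r = 0.983), Ngp (0.982) and Hipk2 (0.981), of which Ltf and Ngp encode proteins of neutrophil granules.

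The other genes stood differently to that list. Lta4h, Alox5ap and Ltb4r1 were lowest in the normal libraries, where the list was above its level in every model library. The summed level of 6 promyelocyte markers was 743 to 961 CPM in normal, 6653 to 9712 CPM in model, 8281 to 9119 CPM in QJSB and 3457 to 4618 CPM in leucogen, and all 6 rose in model. That of 6 monocyte markers was 873 to 985 CPM in normal, 2052 to 3371 CPM in model, 1574 to 2199 CPM in QJSB and 1608 to 2038 CPM in leucogen, and 5 of the 6 rose in model. The closest genes were Cyba (0.980), Cep164 (0.978) and Hp (0.974) for Alox5ap, Sec22c, Sptbn1 and Nin (0.988 to 0.989) for Lta4h, and Rabif, Stim1 and Tcn2 (0.975 to 0.977) for Ltb4r1. Cyp4f18 was highest in normal, where its libraries stood above the leucogen ones although the neutrophil list did not. Its closest genes were Abtb1 (0.982), Dgka (0.976) and Cd3d (0.976), the last encoding a part of the T cell receptor complex. Of 6 T and NK cell markers, 5 were lower and 1 was higher in model against normal. Their summed level was nevertheless higher in model, at 97.1 to 128 CPM beside 49.3 to 58.0 CPM in normal. Alox15 was closest to Rnf145 (0.991), Marcks (0.984) and Dapk2 (0.983), Ggt5 to Akna (0.937), Ampd3 (0.931) and Gab3 (0.931), and Alox12 to Plxna4 (0.969), F2rl2 (0.964) and Tubb1 (0.955), the last a tubulin of platelets. These are the 3 highest correlations among 9440 genes over 12 libraries that fall into 4 groups, given as a description. The part of neutrophils, promyelocytes, monocytes, platelets or T cells in the levels above was not tested.

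**Figure D4:**
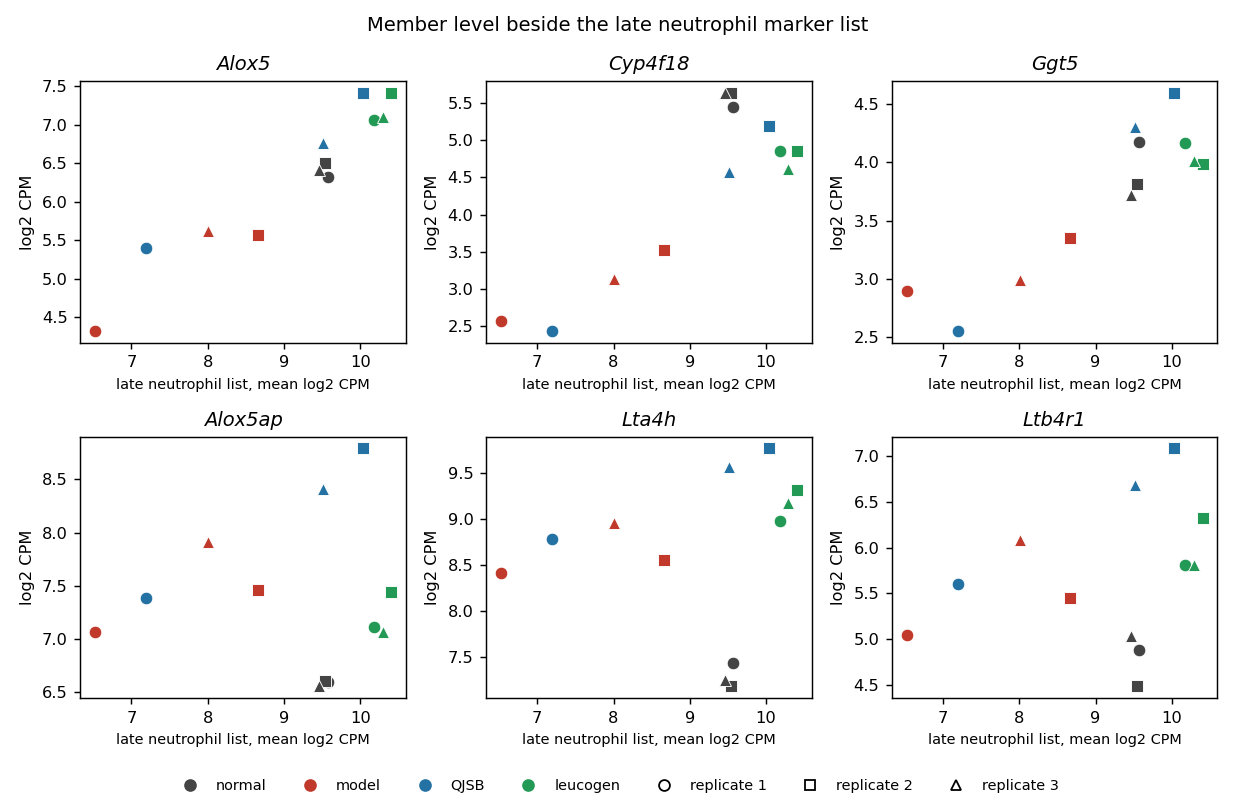
Log2 CPM of 6 genes (vertical axis) against the mean log2 CPM of 14 late neutrophil markers (horizontal axis) in the 12 libraries. Colours are groups and symbols are replicate numbers. Alox5 rises with the list across all groups, whereas for Alox5ap, Lta4h and Ltb4r1 the 3 normal libraries lie at the bottom with a list level of 9.46 to 9.57.

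The study also measured Alox5, Cyp4f18 and Ggt5 by RT-qPCR, which was not analysed here. The paper reports each of them as significantly lower in model than in normal, and as significantly raised by QJSB over model. From its own sequencing analysis, at an unadjusted P, it likewise reports all 3 as higher with QJSB. It describes the RT-qPCR as matching that sequencing. Its methods state that marrow cells of 3 mice were collected for both sequencing and RT-qPCR. The primers of these assays are shown because they define which transcripts such a measurement reads, while the sequenced counts cover the whole gene.
Alox5 forward: gaagctgtccgagtacctg
Alox5 reverse: ggagcaccagtcatactgg
Cyp4f18 forward: attgaatgggacgacctgg
Cyp4f18 reverse: atcgggagattgcagtgac
Ggt5 forward: gatattggacggaagcctg
Ggt5 reverse: acagggtatagtttcctaggg
Matched without mismatch to GENCODE M21 transcripts, the Alox5 pair matched 4 of 8 transcripts and bounded 88 bases. Both protein-coding and retained-intron transcripts were among those 4. The Cyp4f18 pair bounded 94 bases and matched 3 of 3. The Ggt5 pair matched 1 of 7 transcripts, since its forward primer was found in 1 of them, where the pair bounded 98 bases. That transcript has 648 bases with a coding part that ends at base 545, and the pair bounded bases 492 to 589.

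The rest of the pathway was followed in a list of 39 other genes. In model against normal, 26 of them were tested, 11 rose and 4 fell, beside 16.1% and 19% of all genes. The largest rise was that of Dpep2, a membrane dipeptidase that cleaves leukotriene D4, from 1.70 ± 0.60 to 19.9 ± 3.45 CPM (SD, n = 3), with a log2 fold change of 3.54 (edgeR adjusted p = 6.9e-05). The leukotriene exporter Abcc4 (1.59) and the cytochrome P450 Cyp4f16 (1.53), a relative of Cyp4f18, also rose, together with the cysteinyl leukotriene receptor Cysltr1 (1.46), with edgeR adjusted p of 1.2e-04, 2.4e-04 and 0.00229. The phospholipase Pla2g4a, which releases arachidonic acid from membranes, rose by 0.87 on the log2 scale (edgeR adjusted p = 0.00327).

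The 4 that fell were Alox12e (-3.74), an epidermal 12-lipoxygenase, Mgst3 (-3.45), a relative of Ltc4s, the prostaglandin-degrading enzyme Hpgd (-2.19) and the formyl peptide and lipoxin receptor Fpr2 (-1.52), with edgeR adjusted p of 0.00310, 5.9e-06, 0.00147 and 0.00139. Alox12e had only 15 to 29 counts in the normal libraries and 0 to 3 in model.

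In leucogen against model, 25 were tested, and 3 rose and 3 fell, beside 11.6% and 11.5% of all genes. Fpr2 (2.46, edgeR adjusted p = 0.00379), Mgst2 (1.35, edgeR adjusted p = 0.00552) and Mgst1 (1.11, edgeR adjusted p = 0.0107) rose, and Dpep2 (-1.86, edgeR adjusted p = 0.00242), Mgst3 (-1.01, edgeR adjusted p = 0.0318) and Cyp4f16 (-0.75, edgeR adjusted p = 0.0164) fell. Dpep2 and Cyp4f16 thus fell toward their normal level and Fpr2 rose past it, to 278 ± 87.4 CPM beside 146 ± 18.1 CPM in normal. With the replicate number as a block, Mgst3 was no longer called (edgeR adjusted p = 0.0547). Ggt1 was then called as higher (1.81, edgeR adjusted p = 0.0331). In QJSB against model, none of the 26 tested was called, as for all genes (0%).

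In QJSB against leucogen, 6 of 25 of these genes were called, a share like the 24.6% of all genes. Dpep2 (1.56, edgeR adjusted p = 0.00433) and the receptor Cmklr1 (1.20, edgeR adjusted p = 0.0397) were higher in QJSB, and Fpr2 (-2.08, edgeR adjusted p = 0.0154), Mgst1 (-1.18, edgeR adjusted p = 0.0120), Hpgd (-0.99, edgeR adjusted p = 0.0381) and Pla2g4a (-0.76, edgeR adjusted p = 0.00497) were lower. With the replicate number as a block, Cmklr1 (edgeR adjusted p = 0.0631) and Fpr2 (edgeR adjusted p = 0.0757) were no longer called, and Mgst2 was called as lower (-0.99, edgeR adjusted p = 0.0311). Against normal, 13 rose and 4 fell of 26 tested in QJSB, beside 18% and 19.9% of all genes, and 11 rose and 4 fell of 24 in leucogen, beside 17.8% and 19.8%.

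**Figure D5:**
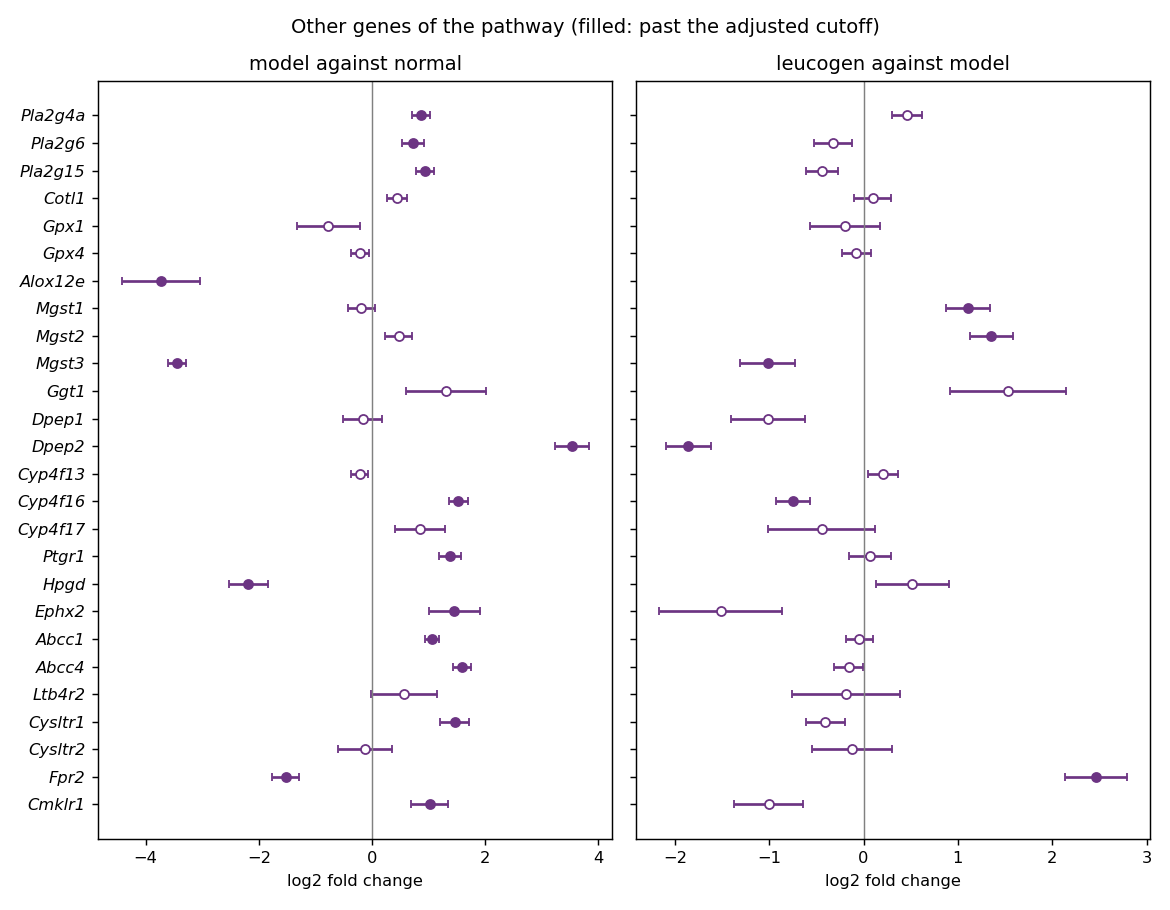
Log2 fold change (horizontal axis, bars of 1 SE) of the other pathway genes tested in model against normal (left) and leucogen against model (right). Filled points passed the adjusted cutoff. Dpep2 is the highest point on the left at 3.54 and the lowest on the right at -1.86, and Fpr2 is the highest on the right at 2.46.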

How the data were processed

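Femoral marrow RNA of 12 mice was sequenced by the authors from strand-specific libraries without ribosomal RNA. Reads were filtered with Seqtk and mapped with Hisat2 to GRCm38.p4. The counting program and annotation are not given in the sources used here. The deposited table holds raw counts per gene and library, as whole numbers, and FPKM that the authors computed from fragments, transcript length and library total. Its columns are headed Blank, Model, Positive and Stilbene. By meaning and elimination, Blank was taken as normal, Positive as leucogen and Stilbene as QJSB, and 0 columns were left unused. For genes of a supplementary table, group means under this reading lay within 1% for 298 of 298, 297 of 297 and 300 of 300 genes found, and for at most 10 under any other pair of groups, so the grouping rests in part on values.

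Totals were 11172547 to 18545198 counts, and 11677 genes had no count. Intervals of summed counts, and floors (3 counts at 0), cover counting error only. The main test was edgeR 4.0.16 (TMM, filterByExpr, robust glmQLFit, glmQLFTest) in R 4.3.3, fitted on the 2 groups compared, over all genes. The study's own test was DESeq2 on an unadjusted P at the same fold cutoff. Log2 CPM used a prior count of 2. Alternatives were the DESeq2 1.42.0 Wald test on unfiltered counts, library totals or DESeq2 size factors within edgeR, no filter, all 12 libraries in one fit, limma 3.58.1 on log2(FPKM + 0.1) and log2(FPKM + 1) with a mean FPKM of at least 0.1, the replicate number as a block, and each library left out. Scripts were tested on simulated data.

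Replicate numbers were tested for pairing by correlating deviations of same-numbered libraries from group means. For QJSB and model the correlations were 0.102 to 0.451, and for QJSB and leucogen 0.110 to 0.175, each over 0.1. They were lower for at least 1 pair in every other comparison. The pairing comes from these values alone, and for QJSB and model numbers 2 and 3 correlated more when crossed. The members, the lists of 39 other pathway genes and 94 markers in 12 lists, and the tests were chosen with earlier results of these data known. Named genes were every member, at most 8 other pathway genes per comparison by absolute log2 fold change among those called, and for likeness the 3 named protein-coding genes of at least 5 CPM with the highest Pearson correlation. Pla2g4a in model against normal was named after its values were seen.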

Additional observations from a re-analysis of the deposited data

How the results depend on the processing

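Members called were 7 in model against normal (4 with all 12 libraries in one fit, 4 to 7 with a library left out), 0 in QJSB against model (1 with the replicate number as a block, 0 with a library left out) and 3 in leucogen against model (3 to 5). They were 4 in QJSB against normal (4 to 6), 6 in leucogen against normal (3 with all libraries in one fit, 5 to 6) and 1 in QJSB against leucogen (0 without a filter, 0 to 2). Over all genes, the fit of all 12 libraries called 5195 in model against normal, beside 5171 in the main test. In leucogen against normal that fit called 5013, beside 5514. With a library left out, leucogen against model had 1239 to 3953 calls over all genes, beside 3275. Same-numbered libraries all correlated over 0.1 only for QJSB with model and QJSB with leucogen. For QJSB with model, numbers 2 and 3 correlated more when crossed, so these values do not settle a pairing. The block changed no other call of a member. Among the other pathway genes, the block changed 3 calls in QJSB against leucogen. Ephx2 and Cmklr1 lost their calls with it in model against normal (edgeR adjusted p = 0.0667 and 0.0716). Pla2g6, Mgst2 and Cysltr1 lost theirs in QJSB against normal (edgeR adjusted p = 0.0533, 0.0750 and 0.0924). In leucogen against model Mgst3 lost its call (edgeR adjusted p = 0.0547) and Ggt1 gained one as higher (edgeR adjusted p = 0.0331). With all libraries in one fit, the calls of Alox5, Ggt5 and Ltb4r1 were lost in model against normal (edgeR adjusted p = 0.0585, 0.0987 and 0.110), that of Ggt5 in leucogen against model (0.0744), and those of Alox5, Alox5ap and Cyp4f18 in leucogen against normal (0.178, 0.115 and 0.226). Ggt5 was under the fold cutoff on log2(FPKM + 1) in model against normal and leucogen against model, as was Alox5ap in leucogen against normal with library totals (0.58) and FPKM (0.57 and 0.56), Ltb4r1 lost its call with DESeq2 size factors in model against normal (0.0536), and Alox5ap lost its call without a filter in QJSB against leucogen (0.0825). Signs turned only for log2 fold changes that were not called. Alox12 was at -0.05 with the block in model against normal and at -0.06 with library totals in QJSB against model. Ggt5 was at -0.05 with the block and at -0.07 and -0.01 on log2(FPKM + 0.1) and log2(FPKM + 1) in QJSB against normal, and at 0 with library totals in QJSB against leucogen. With a library left out, Alox12 ranged from -0.55 to 0.47 in model against normal, from -0.30 to 0.62 in QJSB against model and from -0.22 to 0.52 in QJSB against normal, Alox5 from -0.18 to 0.70 and Ggt5 from -0.25 to 0.54 in QJSB against normal, and Ggt5 from -0.40 to 0.36, Cyp4f18 from -0.93 to 0.10 and Alox15 from -0.62 to 0.08 in QJSB against leucogen. Causes were not tested. Depth limits Alox15 after cyclophosphamide, at 0 to 20 counts a library, and Ltc4s, at 0 to 14.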
